A study of Mus musculus with 10 samples.

Results

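The 9 genes described here encode enzymes that build and break down haem: Alas1, Alas2, Alad, Uros, Urod, Cpox, Ppox and Fech for synthesis and Hmox1 for breakdown. They were found among 19938 genes that Affymetrix Mouse Gene 1.0 ST arrays name through a probe set with a single gene symbol, and each of the 9 was read by 1 such probe set. Alas2 was selected on its signal difference between the same groups of arrays, so its levels are given as a description with no p-value. The other 8 were selected as the textbook enzymes of the same route, with results of these data already known, and are read with the test across all genes.

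Haem is an iron-holding ring that carries oxygen in haemoglobin and electrons in respiratory chain proteins. Its synthesis starts in mitochondria with the joining of glycine and succinyl-CoA by 5-aminolevulinate synthase, continues in the cytosol and ends in mitochondria, where ferrochelatase inserts iron. Of the pair of genes for the first enzyme, Alas1 serves nearly every cell and Alas2, on chromosome X, serves red cell precursors, in which most of the body's haem is made. Haem oxygenases open the ring and release iron, carbon monoxide and biliverdin.

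Whole hippocampi, right and left together, were taken from 5 male Dp1Rhr mice and 5 male control littermates at 16 weeks, with 1 array per mouse. In Dp1Rhr mice the stretch of chromosome 16 that runs from Cbr1 to Fam3b is duplicated in tandem and so present in 3 copies, and controls carry neither duplication of the cross. The controls came from a breeding of Dp5Yah with Dp1Rhr mice, and the same controls served other genotypes of that breeding. The labels give the background of all 10 animals as C57BL/6N, while the study's methods name C57BL/6J, and call the arrays biological replicates. Values are log2 RMA signal, a normalised hybridisation brightness on a log2 scale. Bulk hippocampal RNA does not tell more cells of a type from more RNA per cell.

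The array medians lay between 6.77 and 6.83, and pairs of arrays correlated at 0.996 to 0.998 over all 35556 probe sets. Dyrk1a, inside the duplicated interval, was higher in Dp1Rhr by 0.27 ± 0.03 (log2 difference ± SE, 5 arrays per group; limma with Benjamini-Hochberg adjustment over all genes, adjusted p = 0.011; 0.28 and adjusted p = 0.0538 without Dp1Rhr array 1, the only single array without which the call was lost), and 14 of the 30 measured genes of the interval passed the same test, all higher. None of the 9 haem genes lies in the interval: Cpox is on chromosome 16 as well (58670208 to 58680391, mm10), but in a part that both groups carry in 2 copies. Control arrays 2 and 3 stood apart in Ttr, a choroid plexus transcript, at 9.53 and 9.83 against 13.21 to 13.61 in the other 8 arrays. Alas2 is therefore also given without these arrays.

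The promoters of Alas2, of its ubiquitous counterpart Alas1 and of Cpox are printed to set the erythroid gene beside its counterpart and beside a ubiquitous enzyme with GATA-type motifs in its window, since red cell promoters often hold GATA-type and CACCC-type motifs. Each line is the window of 250 bases before the outermost annotated start, 5′ to 3′ on the gene's strand, from RefSeq on GRCm38.p6. Capitals mark motifs of 2 types, each searched on both strands. The GATA-type motif was AGATAA, where the first letter could also be T and the last could also be G. The CACCC-type motif was CCACCC with no variant.
Alas2, chrX:150547167-150547416, plus strand: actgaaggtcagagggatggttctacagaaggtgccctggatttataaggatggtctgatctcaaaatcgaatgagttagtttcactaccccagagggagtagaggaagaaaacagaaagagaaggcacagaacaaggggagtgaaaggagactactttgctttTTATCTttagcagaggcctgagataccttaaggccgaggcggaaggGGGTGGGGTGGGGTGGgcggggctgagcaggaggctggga
Alas1, chr9:106247955-106248204, minus strand: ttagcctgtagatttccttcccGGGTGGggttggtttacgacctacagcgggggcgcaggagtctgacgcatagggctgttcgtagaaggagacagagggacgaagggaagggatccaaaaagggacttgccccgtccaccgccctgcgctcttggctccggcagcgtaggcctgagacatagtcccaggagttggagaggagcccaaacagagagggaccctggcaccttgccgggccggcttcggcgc
Cpox, chr16:58669958-58670207, plus strand: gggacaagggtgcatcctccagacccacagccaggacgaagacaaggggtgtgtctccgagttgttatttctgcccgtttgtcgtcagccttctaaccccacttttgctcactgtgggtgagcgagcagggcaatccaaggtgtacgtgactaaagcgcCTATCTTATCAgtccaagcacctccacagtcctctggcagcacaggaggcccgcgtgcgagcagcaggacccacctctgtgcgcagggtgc

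The Alas2 window held 1 GATA-type motif, 86 to 81 bases before the start, and 3 CACCC-type motifs between 40 and 25 bases before it, each overlapping the next by 1 base. The Alas1 window held no GATA-type motif and 1 CACCC-type motif, 228 bases before the start. The Cpox window held 2 GATA-type motifs that share 1 base, from 91 to 81 bases before the start, and no CACCC-type motif. Of 32851 RefSeq windows of this length, 26.5% held a GATA-type and 28.1% a CACCC-type motif, and 7.06% held at least 2 of the latter. The table used had windows for 7 of the 9 genes, 10 windows in all; one of the 2 Uros windows also held GATA-type motifs, and those of Alad, Urod and Ppox held neither type. A match is only a match of letters, and what these motifs do in the hippocampus was not tested.

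Alas2 (chromosome X, 150547417 to 150570622) was the only one of the 9 whose groups did not overlap. Its log2 signal was 7.62, 7.38, 7.73, 7.33 and 7.29 on control arrays 1 to 5, and 8.38, 8.09, 8.28, 8.12 and 7.80 on Dp1Rhr arrays 1 to 5. The lowest Dp1Rhr array, the fifth, stood only 0.07 above the highest control array, the third, while the other 4 lay well clear of every control. Means were 7.47 ± 0.19 in controls and 8.13 ± 0.22 in Dp1Rhr (SD, n = 5 each), a log2 difference of 0.67 ± 0.11 (SE; 95% interval 0.42 to 0.91), or 1.59-fold (1.34 to 1.88). With any single array left out, the difference ran from 0.60 to 0.75, and without control arrays 2 and 3 together it was 0.72. Across all genes, 1.82% had groups that did not overlap with Dp1Rhr higher and 1.70% with Dp1Rhr lower, and nothing is read from the place of Alas2 among them, since this contrast was used to choose it. The call across all genes by which it was chosen was lost without control array 2 (0.64) or 5 (0.62), without Dp1Rhr array 1 (0.60), 2 (0.68) or 4 (0.67), and without control arrays 2 and 3 together, so 5 of the 10 fits with a single array left out kept it. The fits with arrays left out that lost it called 5 to 19 genes in all, against 160 with every array. In them the SE of the Alas2 difference was 0.11 to 0.12. Fits with a single array left out that kept it called 42 to 284 genes. It was also lost with the choroid plexus list or adult globin as a covariate.

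**Figure D1:**
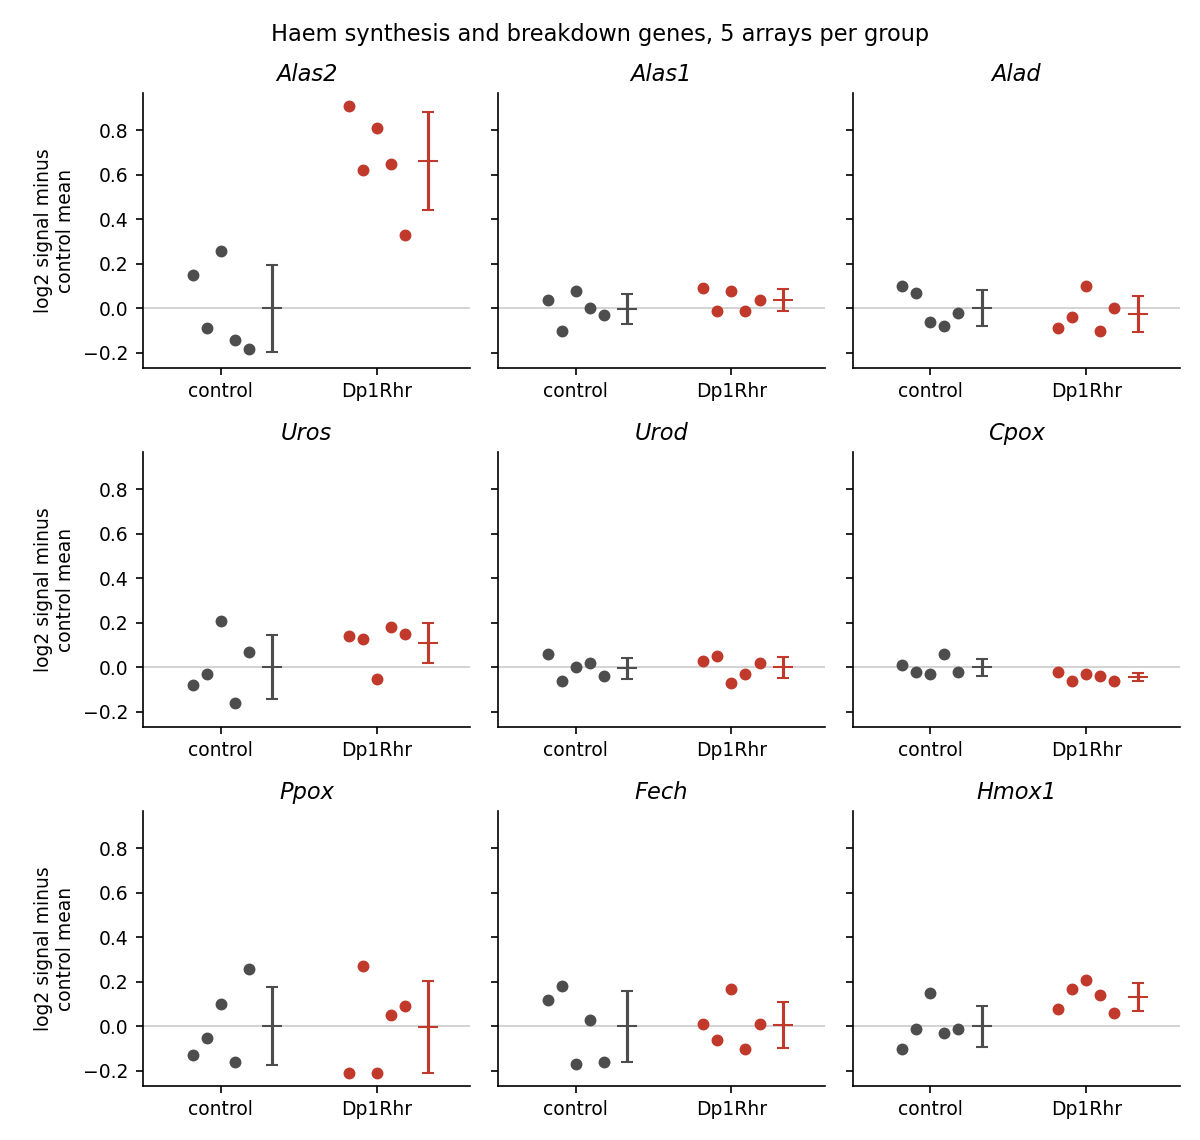
Log2 signal of each of the 9 haem genes on each array, minus that gene's mean over the 5 control arrays (vertical axis, the same in every panel), for control and Dp1Rhr mice; each point is 1 array in the order of its replicate number, and the bar beside the points is the mean with its SD. Alas2 alone has Dp1Rhr points all above its control points, from 0.33 to 0.92 above the control mean.

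Alas1, which makes the same first product in all tissues, did not pass the test between groups. Its signal was 9.86, 9.72, 9.90, 9.82 and 9.79 on the control arrays and 9.91, 9.81, 9.90, 9.81 and 9.86 on the Dp1Rhr arrays. The Dp1Rhr arrays ran from 9.81 to 9.91 against 9.72 to 9.90 in controls, with 3 of the 5 above the control mean. The log2 difference was 0.04 ± 0.04 (95% interval -0.04 to 0.12, limma adjusted p = 0.686).

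Alad, Uros and Urod, which act in the cytosol, showed no difference past the test. Alad, whose product joins 2 molecules of 5-aminolevulinate into porphobilinogen, had signals of 10.68, 10.65, 10.52, 10.50 and 10.56 in controls and 10.49, 10.54, 10.68, 10.48 and 10.58 in Dp1Rhr, a log2 difference of -0.03 ± 0.05 (limma adjusted p = 0.853). Its highest control and highest Dp1Rhr arrays had the same signal. Uros, which closes the ring, had 7.40, 7.45, 7.69, 7.32 and 7.55 in controls and 7.62, 7.61, 7.43, 7.66 and 7.63 in Dp1Rhr. Of its 5 Dp1Rhr arrays, 4 sat close together above the control mean and the third lay below it, and the log2 difference was 0.11 ± 0.07 (interval -0.04 to 0.25; limma adjusted p = 0.508). Urod, which trims the side chains of the ring, had nearly equal means, 9.95 ± 0.04 in controls and 9.95 ± 0.05 in Dp1Rhr (SD, n = 5 each) and an interval of the log2 difference from -0.07 to 0.08.

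The last 3 steps, which take place in mitochondria, did not pass the test either. Cpox, which makes protoporphyrinogen, had 9.09, 9.06, 9.05, 9.14 and 9.06 in controls and 9.06, 9.02, 9.05, 9.04 and 9.02 in Dp1Rhr. All 5 Dp1Rhr arrays were below the control mean, but by little: the log2 difference was -0.04 ± 0.03 (limma adjusted p = 0.543) and the groups overlapped. Ppox, which oxidises the ring to protoporphyrin, varied most among the other 8, from 8.25 to 8.67 in controls and from 8.20 to 8.68 in Dp1Rhr, and its interval of -0.23 to 0.22 was the widest of them. Fech, the ferrochelatase, had 9.15, 9.21, 8.86, 9.06 and 8.87 in controls and 9.04, 8.97, 9.20, 8.93 and 9.04 in Dp1Rhr, with means of 9.03 ± 0.16 and 9.04 ± 0.10 (SD) and an interval of the log2 difference from -0.16 to 0.16. Dp1Rhr array 1, the highest for Alas2, was at the group mean for Fech.

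Hmox1, the inducible haem oxygenase, came nearest to a difference among the other 8. Its signal was 7.04, 7.13, 7.29, 7.11 and 7.13 in controls and 7.22, 7.31, 7.35, 7.28 and 7.20 in Dp1Rhr. All 5 Dp1Rhr arrays were above the control mean, but control array 3 lay inside their range. The log2 difference was 0.13 ± 0.05 (95% interval 0.03 to 0.23), with an unadjusted p of 0.0171 and an adjusted p of 0.209 in limma, and 15.0% of all genes had an unadjusted p under 0.05.

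None of the other 8 passed limma's adjusted threshold of 0.05 in either direction, and 1 of the 8, Hmox1, had an unadjusted p under 0.05. Across all genes, 125 (0.627%) were called higher and 35 (0.176%) lower. FCROS, the rank method of the study in a new implementation, called 0 of the 8 and 5.39% of all genes. The count for the 8 was 0 in each direction in every fit with a single array left out. The median log2 difference of the 8 was 0.00, as it was over all genes. Set against the mean change of the other 8 on the same array, each gene first centred on its control mean, Alas2 stood 0.29 to 0.91 higher on the Dp1Rhr arrays and between -0.19 and 0.22 on the control arrays, a difference of 0.64. The mean of the other 8 itself moved by at most 0.06 on any array. Alas2 was chosen on this contrast, so its distance from the other 8 is a description.

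Adult haemoglobin transcripts moved with Alas2. The adult globin genes had no probe set of their own: 2 probe sets are annotated to the alpha genes Hba-a1 and Hba-a2 together and 2 to the beta genes Hbb-b1, Hbb-b2, Hbb-bs and Hbb-bt together, and they were looked up after the data had been seen. The mean of the 4 was 12.17, 12.04, 12.42, 11.99 and 11.98 on control arrays 1 to 5 and 12.88, 12.77, 12.84, 12.76 and 12.43 on Dp1Rhr arrays 1 to 5. The order within each group was close to that of Alas2, with control array 3 highest among controls and Dp1Rhr arrays 1 and 5 highest and lowest in their group for both.

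The log2 differences of the 4 probe sets were 0.61 ± 0.09 and 0.62 ± 0.10 for alpha and 0.63 ± 0.11 and 0.62 ± 0.11 for beta globin (SE, 5 arrays per group), close to the 0.67 of Alas2. In a limma fit over all 35556 probe sets their adjusted p-values were 0.0673 to 0.0745, so none passed, and 0.0309% of all probe sets did. The fit used for Alas2 and the other genes covered 19938 genes and called 0.627% higher and 0.176% lower. Adjusted p-values of the globin probe sets are therefore not comparable with those of the genes. Both alpha probe sets had groups that did not overlap; in both beta probe sets Dp1Rhr array 5 fell level with or below control array 3. Probe sets annotated to the same genes are not independent readings of them.

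Per array, the change of Alas2 from its control mean and that of the globin mean differed by -0.04 to 0.10 in controls and by -0.03 to 0.15 in Dp1Rhr. Over the 10 arrays the Pearson correlation of Alas2 with the 4 probe sets was 0.977 to 0.992. With the group means taken out, which leaves aside the contrast that chose Alas2, the deviations of Alas2 correlated at 0.901 and 0.911 with the alpha and at 0.966 and 0.968 with the beta probe sets, and with the globin mean at 0.954 (Spearman 0.976, n = 10), and at 0.938 without Dp1Rhr array 5 and control array 3, the arrays farthest from the middle. All 10 arrays share their processing, and no p-value is given.

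**Figure D2:**
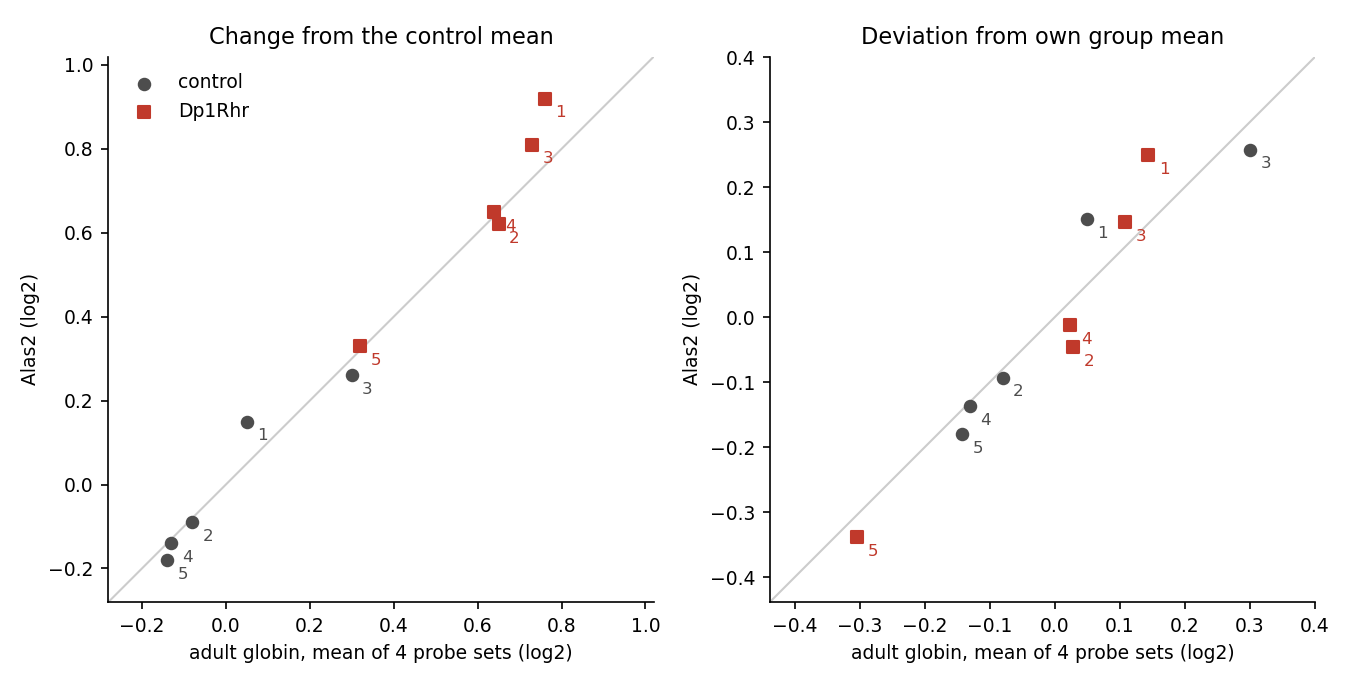
Log2 signal of Alas2 (vertical axis) against the mean of the 4 adult globin probe sets (horizontal axis) on each of the 10 arrays, marked by group and numbered by replicate, as change from the control mean (left) and as deviation from the array's own group mean (right); the grey line marks equal values. The arrays lie along the line in both views, with Dp1Rhr array 5 next to control array 3 on the left and correlations of 0.989 and 0.954.

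With the globin mean of each array as a covariate, a fit added after the data had been seen, the difference of Alas2 between groups was -0.02 ± 0.09 in place of 0.67 ± 0.11. The globin mean differed between the groups by 0.62, with an SD of 0.18 within each, and correlated with Alas2 at 0.989 over the 10 arrays. A small Alas2 difference was therefore fixed before the fit was run, and nothing about its cause is read from it. limma called 0 of all genes in that fit, with 965 at an unadjusted p under 0.05 against 2990 without the covariate, and FCROS has no such covariate. Dyrk1a had a difference of 0.26 ± 0.08 there, close to its 0.27 but with a wider error. The labels do not record how much blood the dissected hippocampi held, and its part in the Alas2 difference was not tested.

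The remaining erythroid genes gave a different picture from globin. Of 27 listed, 18 had a probe set of their own and none passed the limma threshold, with 1 at an unadjusted p under 0.05 and 0 called by FCROS; their median log2 difference was 0.02, and their differences ran from -0.06 to 0.12. They were also dim: 16 of the 18 lay below the 40th percentile of mean signal, against the 53.2nd percentile for Alas2, and the mean of the list was 5.73 to 5.79 in controls and 5.73 to 5.84 in Dp1Rhr. Gata1, the erythroid transcription factor, differed by -0.03 ± 0.03, and Klf1, a further factor of red cell genes, by 0.03 ± 0.06. The embryonic globins differed by 0.12 ± 0.04 for Hba-x, -0.06 ± 0.04 for Hbb-y and 0.00 ± 0.03 for Hbb-bh1. Car1, a carbonic anhydrase of red cells, differed by 0.10 ± 0.05, and Epb42, a protein of the red cell membrane skeleton, by 0.06 ± 0.05. With the mean of this list as covariate, each gene first standardised over the arrays, the Alas2 difference was 0.63 ± 0.11. That mean held no adult globin and came mostly from dim genes, so it is a weak measure of red cell RNA. The part of red cell RNA in the Alas2 difference was not tested.

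Markers of other cells that the dissected tissue could hold were read as lists of the same kind. For comparison with every list, 15.0% of all genes had an unadjusted p under 0.05 and FCROS called 5.39%. Of the platelet and white blood cell list 0 of 12 passed the limma threshold, with 2 at an unadjusted p under 0.05, 1 called by FCROS and a median of 0.04. Ppbp, a platelet chemokine, had the largest value, 0.50 ± 0.12 (limma adjusted p = 0.0818). The other platelet genes of the list, Pf4, Itga2b and Gp9, differed by 0.04, 0.01 and 0.12. The endothelial list had 0 of 12, with 5 at an unadjusted p under 0.05 and 5 called by FCROS, and a median of 0.14; Tek, a receptor of vessel walls, differed by 0.25 ± 0.07. The mean of the endothelial list was 8.91 to 9.16 on control arrays and 9.02 to 9.14 on Dp1Rhr arrays. Of the microglia and macrophage list 1 of 13 passed, with 4 at an unadjusted p under 0.05 and 2 called by FCROS. The median of that list was 0.06, and its differences ran from -0.10 to 0.63. Lyz2, a lysozyme of macrophages and neutrophils, was the gene that passed, higher by 0.63 ± 0.10 (limma adjusted p = 0.0291). This call was kept in 4 of 10 fits with a single array left out (0.56 to 0.72). It was lost without control array 2, 3 or 5 or Dp1Rhr array 1, 2 or 4, fits that called 5 to 42 genes in all. The choroid plexus list had 0 of 19 by limma, 15 at an unadjusted p under 0.05 and 16 called by FCROS, with a median of 0.87 and list means of 6.81 to 8.64 in controls and 8.23 to 9.02 in Dp1Rhr. Control arrays 2 and 3, which stood apart in Ttr, had list means of 6.81 and 6.99, and the other controls 8.05 to 8.64. The difference of this list thus came largely from those control arrays. With the mean of the choroid plexus list as covariate, each gene first standardised over the arrays, the Alas2 difference was 0.73 ± 0.14 and its call was lost. That fit called 7 genes in all against 160 without the covariate. Of 14 hippocampal markers none passed, 1 had an unadjusted p under 0.05, FCROS called 0, and their median was -0.03; all 14 lay above the 40th percentile of signal, with list means of 10.04 to 10.13 in controls and 10.07 to 10.11 in Dp1Rhr. The part of these cells in the Alas2 difference was not tested beyond these values.

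The partners of the haem route were read with the same test. Of the 24 measured partners, which move haem precursors, load iron or handle the products, limma called 0, with 6 at an unadjusted p under 0.05 and 2 called by FCROS, and the median log2 difference was 0.06. Fam210b, a mitochondrial protein that helps iron reach ferrochelatase in red cell precursors, came nearest at 0.18 ± 0.04 (adjusted p = 0.0526), with signals of 9.18, 9.22, 9.37, 9.22 and 9.25 in controls and 9.45, 9.42, 9.39, 9.45 and 9.40 in Dp1Rhr. Its groups did not overlap, though control array 3 lay 0.02 under the lowest Dp1Rhr array; without that control array the difference was 0.21 and passed (adjusted p = 0.0341). Slc25a39, a mitochondrial carrier of glutathione, differed by 0.21 ± 0.06 (adjusted p = 0.125). Tspo, a protein of the outer mitochondrial membrane that binds porphyrins, differed by 0.13 ± 0.04 (adjusted p = 0.127), and Pgrmc1, a haem-binding partner of ferrochelatase, by 0.08 ± 0.03 (adjusted p = 0.223).

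The genes that act with Hmox1 in breakdown showed no difference past the test. Hmox2, the constitutive haem oxygenase of brain, lies on chromosome 16 outside the duplication and differed by 0.04 ± 0.04 (limma adjusted p = 0.713). The biliverdin reductases differed by -0.04 ± 0.04 for Blvra and 0.06 ± 0.04 for Blvrb (adjusted p = 0.744 and 0.588). Bach1, a haem-sensing repressor of Hmox1 that is also on chromosome 16 outside the interval, differed by 0.04 ± 0.03 (adjusted p = 0.627).

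**Figure D3:**
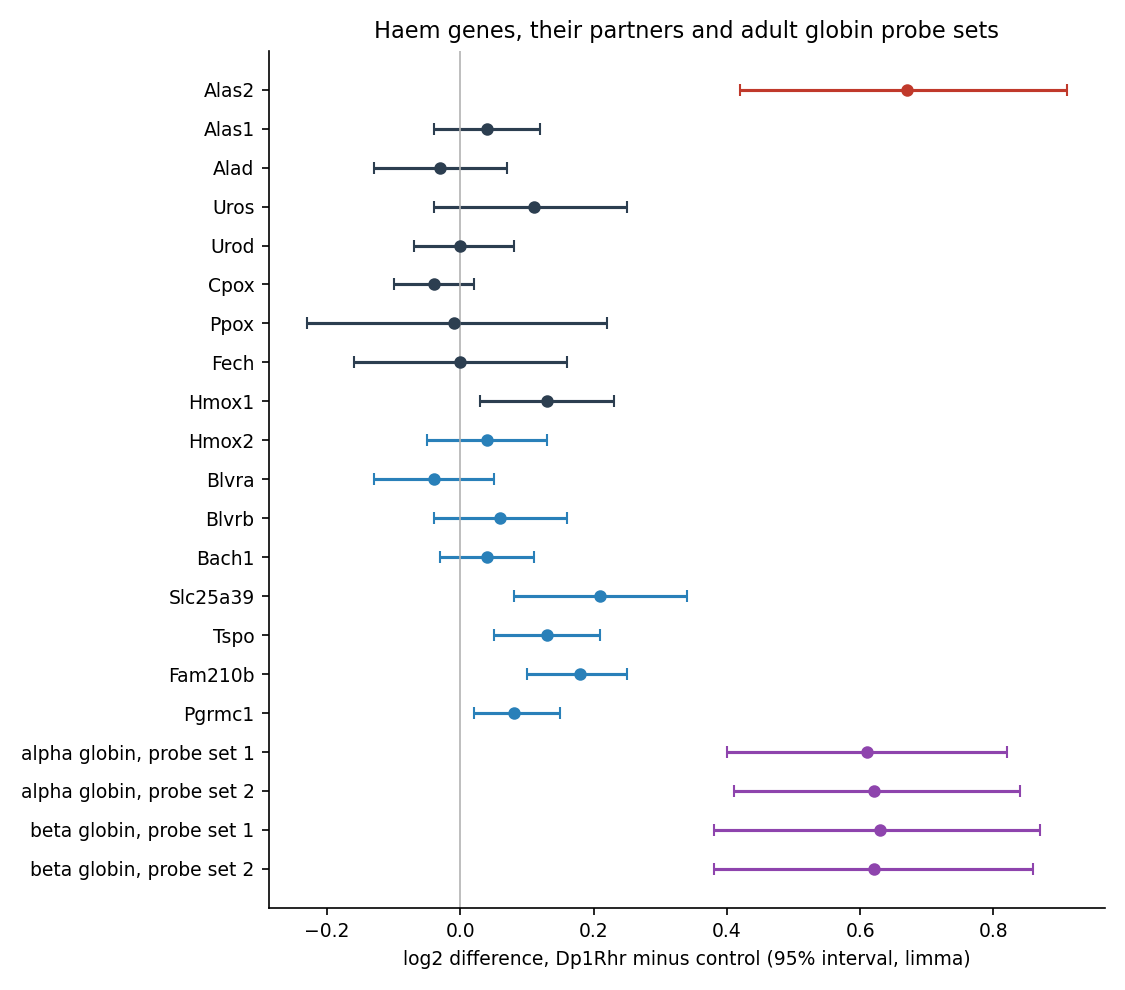
Log2 difference, Dp1Rhr minus control, with its 95% interval from limma (horizontal axis, 5 arrays per group), for the 9 haem genes, 8 partners and regulators and the 4 adult globin probe sets. The globin probe sets lie between 0.61 and 0.63 and the other 8 haem genes between -0.04 and 0.13; Alas2, at 0.67, was selected on this difference, so its place is a description.

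Among regulators of haem and iron, 0 of 15 passed the limma threshold, 3 had an unadjusted p under 0.05, FCROS called 1, and the median was 0.01. Nfe2l2, the factor that switches on Hmox1 and other protective genes, differed by 0.41 ± 0.10 (adjusted p = 0.0776). Its signal was 9.49, 9.20, 9.53, 9.78 and 9.46 in controls and 9.93, 10.02, 9.91, 9.98 and 9.66 in Dp1Rhr, so that Dp1Rhr array 5 fell within the control range. It passed without control array 4 (0.48, adjusted p = 0.0392) or Dp1Rhr array 5 (0.47, adjusted p = 0.0375). Fbxl5, which removes an iron regulatory protein when iron is plentiful, differed by -0.14 ± 0.05 (adjusted p = 0.179).

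Of 21 iron handling genes, limma called 1 higher and FCROS 4, 8 had an unadjusted p under 0.05, and the median was 0.06. Over all genes, FCROS called 5.39% and 15.0% had an unadjusted p under 0.05. Steap2 and Tfrc had the largest differences of the list, 0.53 and 0.33, and neither passed. Trf, the iron carrier transferrin, which oligodendrocytes make in brain, was higher by 0.25 ± 0.05 (adjusted p = 0.0494), at 11.73, 11.58, 11.68, 11.81 and 11.81 in controls and 12.04, 12.01, 12.00, 11.98 and 11.84 in Dp1Rhr. The groups did not overlap, but the call stood in only 2 of 10 fits with a single array left out, those without control array 4 (0.28) or Dp1Rhr array 5 (0.29), and in the other 8 the difference was 0.22 to 0.27. Slc39a8 differed by 0.16 ± 0.05 (limma adjusted p = 0.127) and Slc39a14 by -0.12 ± 0.04 (adjusted p = 0.169). Steap3, an iron reductase of red cell precursors, differed by 0.12 ± 0.04 (adjusted p = 0.144), and Lrp1, which takes up haem bound to haemopexin, by -0.19 ± 0.06 (adjusted p = 0.143).

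Of 9 proteins that hold haem in brain, limma called 1 higher and FCROS called 2, while 3 had an unadjusted p under 0.05, and the median was 0.03. Tdo2, the haem enzyme that opens the tryptophan ring, was at 6.80, 6.82, 6.80, 6.70 and 6.66 in controls and 6.98, 6.98, 7.02, 7.04 and 6.99 in Dp1Rhr, higher by 0.25 ± 0.04 (adjusted p = 0.021). The groups did not overlap, and the difference was 0.22 to 0.26 with any single array left out. The call was lost without control array 5 or Dp1Rhr array 1, 2 or 4, fits that called 5 to 12 genes in all. Cyb5a, a cytochrome that passes electrons to lipid enzymes, differed by 0.21 ± 0.05 (adjusted p = 0.0651), and Cat, the haem enzyme catalase, by 0.11 ± 0.04 (adjusted p = 0.195).

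**Figure D4:**
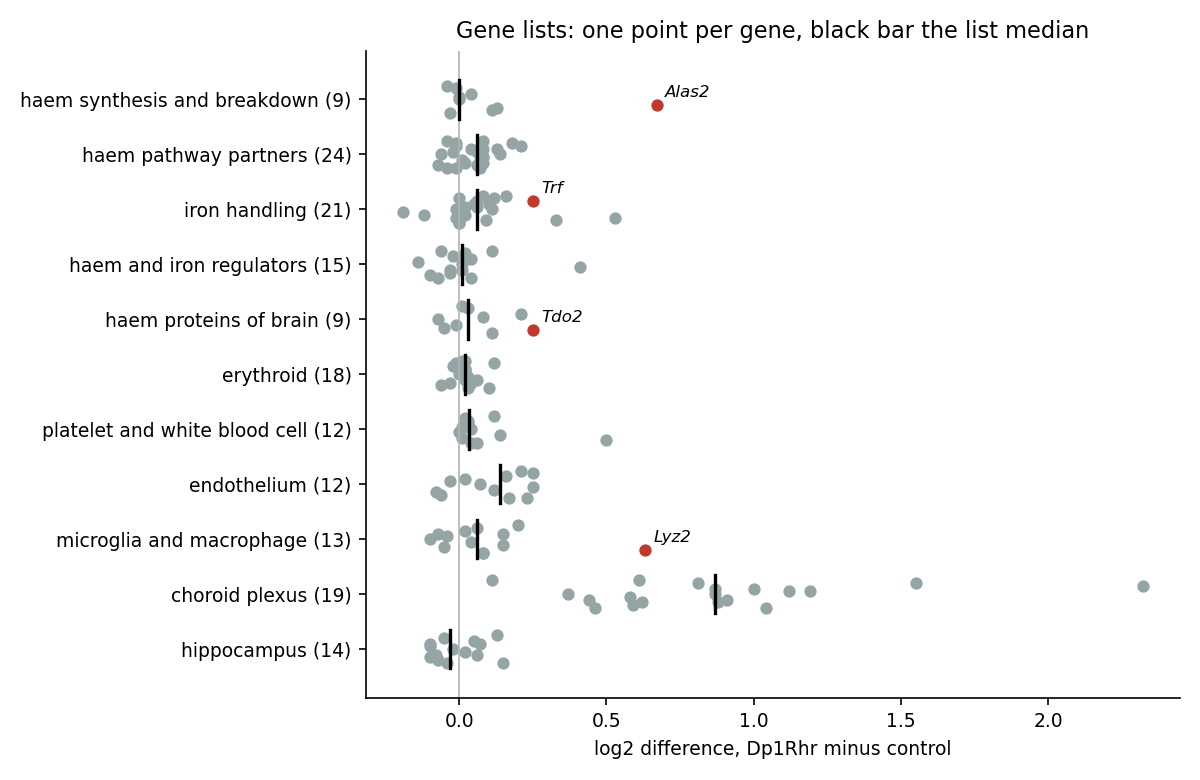
Log2 difference, Dp1Rhr minus control (horizontal axis), of every measured gene of the haem, iron and cell type lists, 1 point per gene, with the list median as a black bar and the number of measured genes in brackets; red points passed limma's adjusted threshold of 0.05. Trf, Tdo2 and Lyz2 passed. Alas2 is red too, but it was selected on this difference, so its place is a description. The choroid plexus list has a median of 0.87 with no gene past the threshold. Control arrays 2 and 3 were low for that list, with means of 6.81 and 6.99 against 8.05 to 8.64 on the other controls.

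The likeness of other genes to Alas2 was measured by the Pearson correlation over the 10 arrays. With the group means taken out, the 10 genes most like it were Dna2 (0.936), Taar3, Clpp, Chst3, Nceh1, Olfr1245, Zfpm1, Eif4e, Olfr1094 and Ube2l6, all below the 0.954 of the globin mean; the mean of the alpha probe sets alone, at 0.907, fell among these genes. On the levels as they are, Ube2l6, which encodes a conjugating enzyme of the ubiquitin and Isg15 systems, led at 0.976, followed by Slc38a3, Dnaic2, Hadh, Clpp, Hapln1, Aldh9a1, Sugct, Man2b2 and Eci1 (0.943). Ube2l6 and Clpp, a mitochondrial protease subunit, stood in both sets of 10. Among the haem genes, Alas1 followed Alas2 most closely within groups at 0.621, then Hmox1 at 0.410, while Fech was at 0.0345 and Ppox at -0.440. With 19938 genes and 10 arrays these figures are a description only.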

How the data were processed

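The values the authors deposited are log2 signals from RMA (background correction, quantile normalisation, summary over probes). The submitters' notes name RMA, limma and mm10; sources used here state neither the RMA version nor the set of arrays normalised together. Quantile normalisation would hide a shift of all genes.

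Of 35556 probe sets, 21789 carried a single symbol in the platform annotation, 1621 several and 12146 were not listed; the brightest probe set stood for each of 19938 genes. Symbols were updated through Entrez numbers against RefSeq (GRCm38), matching 21698 probe sets. Groups, 5 arrays each, were compared with limma 3.58.1 in R 4.3.3 (lmFit, eBayes, two-sided, Benjamini-Hochberg over all genes, threshold 0.05). limma was tested on simulated data. The study's FCROS, which calls fixed tails of a rank distribution, was an alternative beside normalisation, filter, variance, covariate, block and left-out arrays. Genes named outside the 9 are, for each of 12 lists, drawn from those past the threshold and, of the rest, the 4 with the smallest p (of the duplicated interval, Dyrk1a alone), plus fixed partners, globins and the 10 most like Alas2 by each measure. Steap2 and Tfrc are also named, for the size of their differences, and Pf4 and Itga2b, as platelet genes listed with Ppbp. Members and lists were chosen with earlier results of these data known. The number of arrays limits the precision. Pairing of replicate numbers was checked.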

Additional observations from a re-analysis of the deposited data

Results flagged for a closer look

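The lowest or highest array of a group of 5 stood far from the others, by Dixon's criterion, in 3 of the 126 gene and group pairs examined, and chance alone flags about 1 in 20. Uros on Dp1Rhr array 3 was at 7.43, with the nearest of the others at 7.61 and the highest at 7.66. Blvra on Dp1Rhr array 5 was at 7.75, with the nearest at 7.61. The mean of the alpha globin probe sets on Dp1Rhr array 5 was 12.28, with the nearest at 12.57 and the highest at 12.67; Alas2 was lowest on the same array, at 7.80, without being set apart by this criterion.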

How the results depend on the processing

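The difference of Alas2 was 0.60 to 0.75 with single arrays left out and 0.63 to 0.73 under the other planned settings. Against the other 8 enzymes it was 0.57 to 0.73 with single arrays left out. Its within-group correlation with globin was 0.921 to 0.968 with single arrays left out. With adult globin as covariate, added after the data had been seen, both differences became -0.02, which the closeness of globin to Alas2 had fixed beforehand. The count of the other 8 past the threshold was 0 under every setting run.

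The pathway and iron lists, with 2 genes higher, had 0 with the replicate block, without control arrays 2 and 3 together and with the choroid plexus or globin covariate, 1 with the erythroid covariate and 0 to 4 with single arrays left out. The cell type lists, with 1 gene higher, had 0 with the block, without both control arrays and with the choroid plexus or globin covariate, and 0 to 2 with single arrays left out.

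Replicate numbers did not pair the samples: same-numbered deviations correlated at 0.124, -0.327, -0.337, -0.082 and 0.069, and no array was nearest its own number. With the replicate block the Alas2 difference was 0.67 ± 0.05.

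Some differences changed sign, most of them near 0; Ttr, at 1.55 with no covariate, was the largest. With single arrays left out Urod ran from -0.01 to 0.02, Ppox from -0.08 to 0.06, Fech from -0.04 to 0.05, Hbb-bh1 from -0.01 to 0.02 and Klf1 from -0.02 to 0.06. Without control arrays 2 and 3, Urod was -0.01 and Ppox 0.01. Fech was -0.00 after a second quantile normalisation, and with array weights Ppox was 0.01 and Fech -0.01. With the choroid plexus covariate Urod was -0.05, Ppox 0.02, Fech -0.01 and Ttr -0.28. With the erythroid covariate Ppox was 0.04, Fech -0.03 and Hbb-bh1 -0.01. With the globin covariate Alas1 was -0.07, Uros -0.01, Urod -0.00, Ppox 0.13, Hmox1 -0.04, Car1 -0.04, Epb42 -0.02, Klf1 -0.06, Mafg 0.09, Blvra 0.11, Neurod2 0.11 and S100a9 -0.00. The causes were not tested, and 5 arrays a group limit the precision.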
